A study of Mus musculus with 5 samples.

Results

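The genes described here were 10 genes of the mitochondrial integrated stress response, chosen by name as Gdf15, Fgf21, Atf4, Atf5, Asns, Mthfd2, Phgdh, Psat1, Trib3 and Shmt2. All 10 were present among the 19061 gene rows of the deposited files, and 9 had enough reads to be tested. They were measured by RNA sequencing in hearts of C57BL/6 mice at postnatal day 158. One group had received JIB-04, a compound that blocks Jumonji enzymes, which take methyl groups off histones, at 50 mg/kg (3 libraries), and the other had received vehicle (2 libraries). Dosing ran 3 times each week from an age of 4 weeks. All mice of both groups carried a calcineurin transgene, driven in cardiac muscle cells by a myosin heavy chain promoter, as the name MHC-CnATg says, and no heart without the transgene is compared here. The comparison therefore asks how long-term dosing altered these genes in hearts of this hypertrophy model. Whether each library came from a separate animal is not stated, so p-values measure the spread between these libraries, which may be technical.

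The integrated stress response is a shared reaction of cells to different forms of damage. Kinases that sense the damage phosphorylate the translation initiation factor eIF2, which lowers protein synthesis in general while the messenger RNA of the transcription factor ATF4 is translated more. When mitochondria are damaged, the protease OMA1 cuts DELE1, which activates the kinase HRI, and ATF4 then raises genes for amino acid import, serine synthesis and mitochondrial folate metabolism. Heart muscle with failing mitochondria is known to make the secreted proteins GDF15 and FGF21 through this route.

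ATF4 pairs with C/EBP proteins on a composite DNA element whose core can be written TGATGNAA. That core, searched on both strands of the 250 bases upstream of each RefSeq start site (build GRCm38.p6), was present in 2 of 13 windows of these genes, against 3.45% of 32851 windows of all genes. The windows with a match belonged to Asns (chr6:7693210-7693459, minus strand) and Fgf21 (chr7:45615491-45615740, minus strand). They are shown because Asns and Fgf21 are textbook targets of ATF4, of which Asns was read in every library and Fgf21 hardly at all. Each is written 5′ to 3′ along the gene, with the match in capitals, 23 bases upstream of the start site in Asns and 139 bases upstream, on the opposite strand, in Fgf21.
Asns: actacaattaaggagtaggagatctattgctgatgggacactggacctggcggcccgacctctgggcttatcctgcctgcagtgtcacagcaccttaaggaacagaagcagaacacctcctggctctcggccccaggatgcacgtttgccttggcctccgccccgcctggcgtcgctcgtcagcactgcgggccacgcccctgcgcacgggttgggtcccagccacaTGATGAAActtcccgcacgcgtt
Fgf21: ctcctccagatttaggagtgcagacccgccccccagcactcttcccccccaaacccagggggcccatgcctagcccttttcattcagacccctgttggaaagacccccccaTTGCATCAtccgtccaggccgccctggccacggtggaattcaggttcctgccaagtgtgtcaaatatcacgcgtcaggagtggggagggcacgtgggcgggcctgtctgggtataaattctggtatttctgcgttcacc
A match describes letters only, and no match in the other 11 windows says nothing about binding of the factor. Both Gdf15 windows, from 70632096 and 70632457, lay apart from the deposited end of that minus-strand gene at 70631635. The bases directly upstream of that end were thus not searched. For Trib3 the first transcribed bases after the window were not found in a GENCODE transcript, so its start site is less sure.

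The libraries held 32152168 to 37002846 reads on genes, recovered from the deposited values, which are reads scaled by library size, in the unit CPM. The value of 3 reads, taken as the lowest level that can be seen, was 0.0804 to 0.0977 CPM, for counting error only. Cardiac muscle markers were abundant in every library, with Myh6 at 19599 to 26321 CPM in JIB-04 and 23926 and 27883 CPM in vehicle hearts. JIB-04 replicate 1 was below the other JIB-04 libraries for all tested stress response genes but Shmt2, and the fold change without it is given beside each.

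No stress response gene passed the test between JIB-04 and vehicle. With limma on log2(CPM + 1) and p-values adjusted by Benjamini-Hochberg for 14414 genes, 0 of 9 had an adjusted p under 0.05 (smallest 0.748), as did 0% of all genes. edgeR, which called 0% of all genes, and DESeq2, which called 0.583% of them, called 0 of the 9 as well. In limma 1 of the 9, Atf5, had an unadjusted p under 0.05, a rate that was 6.44% over all genes. The log2 fold change was positive for 8 of 9 genes, compared with 46.9% of all genes, and the median was 0.22, compared with -0.01 over all genes. The groups did not overlap for Atf5 alone, whose JIB-04 values all exceeded those of vehicle, a pattern that 10.7% of all genes had. With JIB-04 replicate 1 left out, the 9 genes had a median of 0.32 and 6 of 9 had an unadjusted p under 0.05, a rate that was 18.7% over all genes in that fit. The smallest adjusted p there was 0.0602, so 0 of 9 passed, and 0.201% of all genes were called. That library was singled out for its low values of these same genes. A higher median and a smaller spread of JIB-04 values without it were therefore built in. The p-values of that fit are thus no evidence of a difference, and the share over all genes is no fair background for them. Without JIB-04 replicate 2 or 3 the median was 0.12 or 0.17. In each of those 2 fits 0 of 9 had an unadjusted p under 0.05 (limma), against 778 and 628 of all 14414 genes.

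**Figure D1:**
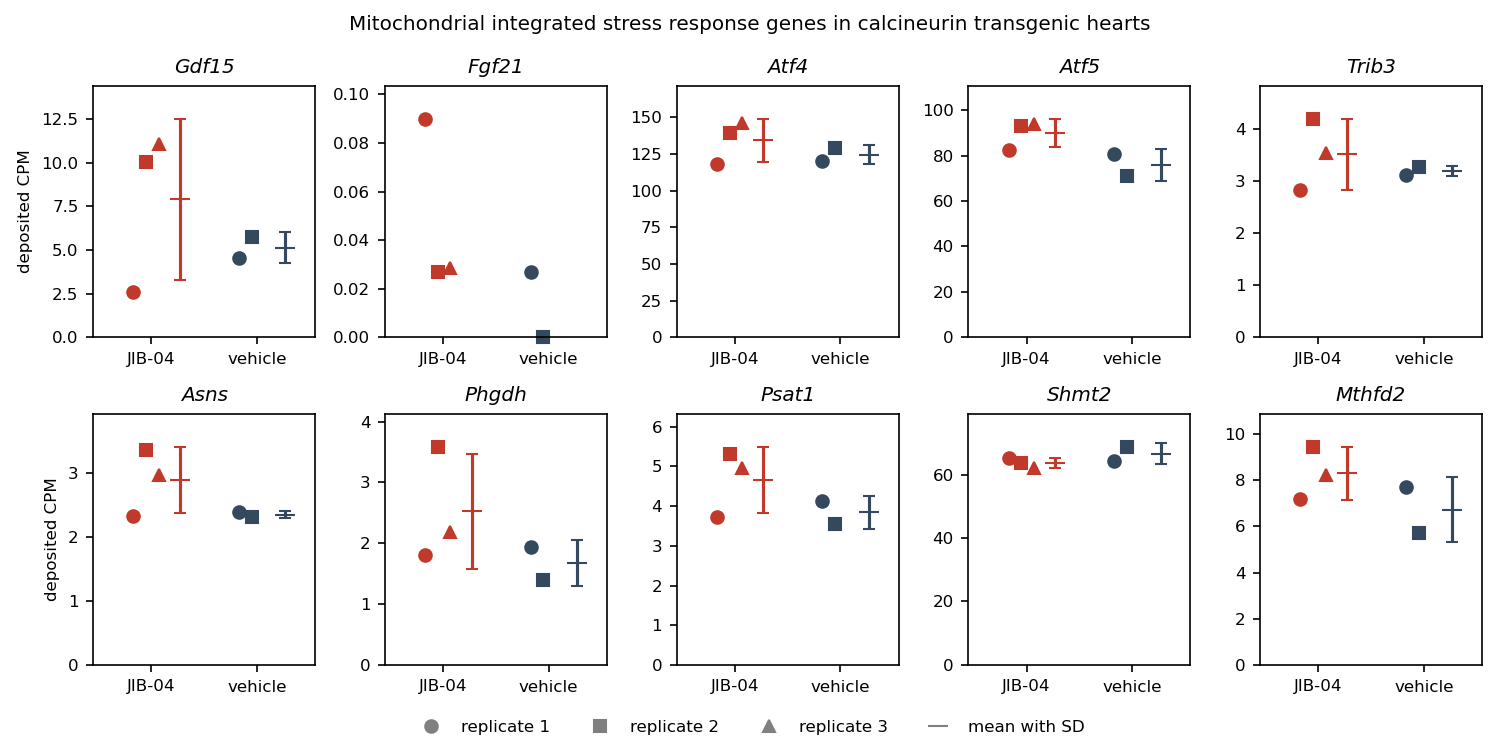
Deposited CPM (vertical axes, each from 0) of the 10 genes in the JIB-04 and vehicle libraries. Marker shapes give the replicate number and horizontal marks with bars the mean with SD, left out for Fgf21, which had 0 to 3 reads per library. JIB-04 replicates 2 and 3 lie above both vehicle libraries for Gdf15, Atf4, Atf5, Trib3, Asns, Phgdh, Psat1 and Mthfd2, while JIB-04 replicate 1 lies within or below the vehicle range for all of these but Atf5. The share of all genes with JIB-04 replicates 2 and 3 above both vehicle libraries was not counted, so this pattern has no background to be read against.

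Per kilobase of exon, the transcription factors Atf4 and Atf5 were the most abundant of the set. Atf4, the central activator of the response (chromosome 15, 80255183 to 80257545), was read at 118, 139 and 146 CPM in the JIB-04 replicates 1, 2 and 3, and vehicle replicates 1 and 2 were at 120 and 129 CPM. JIB-04 replicate 1 was the lowest library and replicates 2 and 3 the highest, so the groups overlapped. Its log2 fold change came to 0.10 (SE 0.10, limma adjusted p = 0.872), less than the spread between libraries. Dropping JIB-04 replicate 1 gave 0.19, dropping replicate 3 gave 0.04, and dropping vehicle replicate 1 or 2 gave 0.05 or 0.16. ATF4 is controlled to a large part by translation, which transcript levels do not show.

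Atf5, a relative of ATF4 that in mammals is tied to the mitochondrial unfolded protein response (chromosome 7, 44812255 to 44816658), was at 82.6, 93.1 and 94.0 CPM in JIB-04 and at 80.8 and 70.9 CPM in vehicle hearts. The groups did not overlap, though the gap between JIB-04 replicate 1 and vehicle replicate 1 was small. Means were 89.9 ± 6.3 CPM (SD, n = 3) for JIB-04 and 75.8 ± 7.1 CPM (SD, n = 2) for vehicle. On the log2 scale JIB-04 exceeded vehicle by 0.24 (SE 0.09, 95% interval 0.03 to 0.45, limma adjusted p = 0.748). Leaving out vehicle replicate 2 gave 0.15, leaving out vehicle replicate 1 gave 0.34, and leaving out JIB-04 replicate 1 gave 0.30. Atf5 lies across Nup62 and Il4i1 on the other strand. Nup62, a nuclear pore protein, was at 32.6 to 36.7 CPM in JIB-04 and 28.9 and 31.6 CPM in vehicle hearts. Whether the authors' counting used strand is not stated, so reads of these genes may not be fully apart.

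Trib3, a pseudokinase that ATF4 induces and that restrains it in turn (chromosome 2, 152337424 to 152344060), was at 2.82, 4.18 and 3.52 CPM in JIB-04 and at 3.12 and 3.26 CPM in vehicle hearts. JIB-04 held both the lowest and the highest library. Its log2 fold change came to 0.10 (SE 0.15, limma adjusted p = 0.911) but to -0.010 when JIB-04 replicate 2 was left out and to 0.21 when replicate 1 was, so no direction can be given.

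Of the secreted factors, Gdf15 varied most. Gdf15 encodes a hormone of the TGF-beta family that acts on the hindbrain to lower appetite and is made by stressed heart muscle and macrophages (chromosome 8, 70629393 to 70631635). It was at 2.58, 10.05 and 11.1 CPM in JIB-04 hearts 1, 2 and 3, or 86, 375 and 389 reads, and at 4.51 and 5.76 CPM in vehicle hearts, or 168 and 177 reads. JIB-04 replicate 1 was the lowest library and the other JIB-04 libraries the highest. The 95% counting intervals (exact Poisson) were 2.06 to 3.19 CPM in JIB-04 replicate 1 and 9.05 to 11.1 CPM in replicate 2, so counting error did not cover the gap between them. Means were 7.89 ± 4.63 CPM in JIB-04 (SD, n = 3) and 5.14 ± 0.88 CPM in vehicle hearts (SD, n = 2). The difference on the log2 scale was 0.35 (SE 0.50, limma adjusted p = 0.899), with a 95% interval of -0.84 to 1.55 that spans 0. On recovered reads edgeR gave 0.64 (edgeR adjusted p = 0.857). The values that follow are from limma. Leaving out JIB-04 replicate 1, the library singled out for its low values, gave 0.92 (limma adjusted p = 0.0602), a rise that was built in. Leaving out replicate 2 gave 0.10, leaving out replicate 3 gave 0.04, and leaving out vehicle replicate 1 gave 0.21.

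Markers of macrophages, which can also make Gdf15, followed the same order among the JIB-04 libraries. Their 12 genes summed to 355, 489 and 558 CPM in JIB-04 replicates 1, 2 and 3, and to 357 and 255 CPM in vehicle replicates 1 and 2. Of the 12, 11 had a positive log2 fold change, compared with 46.9% of all genes. An unadjusted p under 0.05 was reached by 9, compared with 6.44% of all genes, and the adjusted threshold by 0 (limma). Lyz2, a lysozyme of myeloid cells, ranged from 116 to 171 CPM in JIB-04 and was at 120 and 85 CPM in vehicle hearts, and no marker of the list was at 0. The part of these cells in the Gdf15 values was not tested. In whole hearts, more cells of a type and more RNA per cell cannot be told apart.

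Fgf21, a hormone made mainly by liver and induced in muscle with mitochondrial disease (chromosome 7, 45613889 to 45615490), was near the limit of detection. It had 3, 1 and 1 reads in JIB-04 and 1 and 0 reads in vehicle libraries, or 0.090, 0.027 and 0.028 CPM in JIB-04 and 0.027 and 0 CPM in vehicle. No library had more than 3 reads, so no fold change is given and Fgf21 was not tested. Of the liver markers, Alb, the serum albumin gene, was at 0, 10.5 and 3.72 CPM in JIB-04 and 4.25 and 3.78 CPM in vehicle hearts. It was thus above Fgf21 in all libraries but JIB-04 replicate 1.

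The receptors of both hormones were also fixed as a list. Gfral, the GDF15 receptor of the hindbrain, was not analysed here. Its coreceptor Ret was at 1.77 to 2.02 CPM in JIB-04 and at 1.75 and 1.17 CPM in vehicle hearts (log2 fold change 0.24, limma adjusted p = 0.821), with a fold change of 0.07 without vehicle replicate 2 and 0.41 without vehicle replicate 1. Klb, the coreceptor that FGF21 needs, had no read in JIB-04 and 1 read, 0.0326 CPM, in 1 vehicle library. Fgfr1, its main signalling partner, was at 132 to 143 CPM in JIB-04 and at 136 and 132 CPM in vehicle hearts.

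The enzymes of amino acid synthesis were expressed at low levels, and for Asns, Phgdh and Psat1 JIB-04 replicate 2 was the highest library. Asns, which makes asparagine from aspartate (chromosome 6, 7675170 to 7693182), was at 2.34, 3.38 and 2.98 CPM in JIB-04 and at 2.39 and 2.31 CPM in vehicle hearts. JIB-04 replicate 1 lay between the vehicle libraries. Asns had a log2 fold change of 0.21 (SE 0.14, limma adjusted p = 0.831), which was 0.32 without JIB-04 replicate 1 and 0.12 without replicate 2. Asns had 71 to 126 reads per library. The counting interval of JIB-04 replicate 2 was 2.81 to 4.02 CPM and that of vehicle replicate 1 was 1.92 to 2.94 CPM. These intervals overlap slightly, which does not decide whether counting error covers the gap, and this was not tested.

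Phgdh, the first enzyme of serine synthesis (chromosome 3, 98313170 to 98339969), was at 1.80, 3.59 and 2.19 CPM in JIB-04 and at 1.93 and 1.40 CPM in vehicle hearts. JIB-04 replicate 2 stood above the other libraries, and JIB-04 replicate 1 lay between the vehicle libraries. Means were 2.53 ± 0.94 CPM in JIB-04 (SD, n = 3) and 1.67 ± 0.38 CPM in vehicle hearts (SD, n = 2). Phgdh had a log2 fold change of 0.38 (SE 0.22, limma adjusted p = 0.821), which was 0.17 when JIB-04 replicate 2 was left out, 0.53 when replicate 1 was, and 0.23 when vehicle replicate 2 was. On recovered reads edgeR gave 0.61. Adding 1 to low CPM values shrinks the log ratio, but limma with 0.1 added in place of 1 gave 0.53, so this was only part of the difference.

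Psat1, the aminotransferase of the second step (chromosome 19, 15905122 to 15925059), was at 3.72, 5.30 and 4.97 CPM in JIB-04 and at 4.14 and 3.55 CPM in vehicle hearts. Here too JIB-04 replicate 1 lay between the vehicle libraries, and the difference on the log2 scale was 0.22 (SE 0.16, limma adjusted p = 0.836). Without JIB-04 replicate 1 it was 0.34, and it was 0.13 without either JIB-04 replicate 2 or vehicle replicate 2. Psph, the phosphatase that ends the pathway, was at 3.63, 4.18 and 4.35 CPM in JIB-04 and at 3.87 and 3.09 CPM in vehicle hearts (log2 fold change 0.17, SE 0.13, limma adjusted p = 0.840).

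The mitochondrial folate enzymes differed in level and in spread. Shmt2, which splits serine into glycine and a folate-bound carbon unit (chromosome 10, 127517122 to 127522444), was at 65.3, 63.7 and 62.2 CPM in JIB-04 and at 64.2 and 68.9 CPM in vehicle hearts. It was the steadiest of the 9 genes tested, with the highest library 1.11 times the lowest, and the member with a negative log2 fold change, -0.06 (SE 0.06, 95% interval -0.21 to 0.09, limma adjusted p = 0.872). That value was -0.08 without JIB-04 replicate 1, and -0.11 and -0.01 without vehicle replicates 1 and 2. Shmt2 lies across Ndufa4l2 on the other strand, which was at 12.1 to 18.2 CPM over the 5 libraries.

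Mthfd2, the folate dehydrogenase that acts after Shmt2 and is low in most adult tissue (chromosome 6, 83305703 to 83317604), was at 7.17, 9.46 and 8.24 CPM in JIB-04 and at 7.71 and 5.73 CPM in vehicle hearts. JIB-04 replicate 1 lay between the vehicle libraries and vehicle replicate 2 was the lowest. Means were 8.29 ± 1.14 CPM in JIB-04 (SD, n = 3) and 6.72 ± 1.40 CPM in vehicle hearts (SD, n = 2). Its log2 fold change was 0.27 (SE 0.16, limma adjusted p = 0.821). The value was 0.36 without JIB-04 replicate 1, and 0.46 and 0.08 without vehicle replicates 1 and 2.

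JIB-04 replicate 2, the highest library for Asns, Phgdh, Psat1, Mthfd2 and Trib3, also had the highest summed level of 8 proliferation markers. These summed to 38.3, 77.2 and 27.8 CPM in JIB-04 replicates 1, 2 and 3 and to 41.5 and 33.4 CPM in vehicle replicates 1 and 2. Mki67, a marker of dividing cells, was at 11.8, 28.7 and 8.61 CPM in JIB-04 and at 13.5 and 10.6 CPM in vehicle hearts, and no marker of the list was at 0. This was not particular to proliferation markers. JIB-04 replicate 2 also had the highest sums of endothelial (1474 CPM), fibroblast (5473 CPM) and liver markers (22.3 CPM). It had the lowest sums of cardiac muscle and smooth muscle markers, and neither extreme for macrophage or red blood cell markers. The part of dividing cells in the values of Asns, Phgdh, Psat1, Mthfd2 and Trib3 was not tested.

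**Figure D2:**
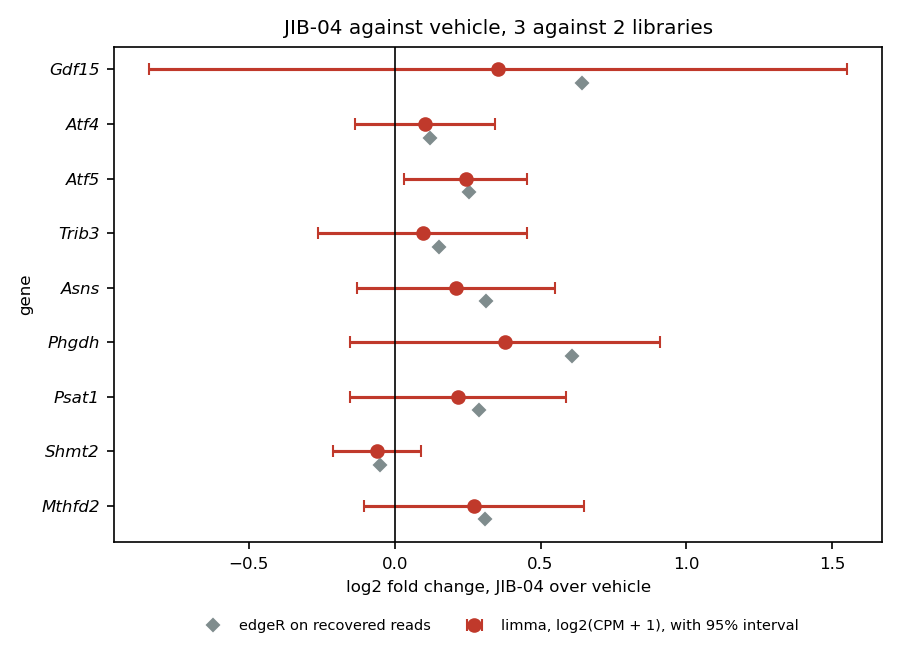
Log2 fold change of JIB-04 over vehicle (horizontal axis) for the 9 genes tested, from limma on log2(CPM + 1) with its 95% interval (circles and bars) and from edgeR on recovered reads (diamonds). The interval for Atf5, 0.03 to 0.45 before any adjustment, lies above 0, and that of Gdf15 is the widest, from -0.84 to 1.55.

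The SD in CPM was larger over the JIB-04 than over the vehicle libraries for Gdf15, Atf4, Asns, Phgdh, Psat1 and Trib3, and smaller for Atf5, Mthfd2 and Shmt2. Relative to the mean of the 5 libraries on the log2(CPM + 1) scale, the median of the 9 genes was -0.14, 0.25 and 0.12 in JIB-04 replicates 1, 2 and 3, and -0.08 and -0.14 in vehicle replicates 1 and 2. JIB-04 replicate 2 was the highest library for 5 of the 9 genes and JIB-04 replicate 3 for 3, compared with 24.2% and 17.3% of all genes. JIB-04 replicate 1 was the highest for 0 of the 9 and the lowest for 3, Gdf15, Atf4 and Trib3, compared with 23.2% and 19.6% of all genes. Vehicle replicate 2 was the lowest for 5, Atf5, Asns, Mthfd2, Phgdh and Psat1, and the highest for Shmt2, compared with 18.7% and 22.7% of all genes. From the lowest to the highest library Gdf15 spanned 4.28-fold and Phgdh 2.56-fold, while Mthfd2, Psat1, Trib3 and Asns spanned 1.46-fold to 1.65-fold and Atf4 and Atf5 1.24-fold and 1.33-fold. Cell type markers differed between the same libraries. The 10 cardiac muscle markers summed to 85008, 69799 and 76415 CPM in JIB-04 replicates 1, 2 and 3, and to 80629 and 91960 CPM in vehicle replicates 1 and 2, with all 10 log2 fold changes negative and 0 called. The 10 fibroblast markers summed to 4396, 5473 and 5246 CPM in JIB-04 and to 4502 and 4175 CPM in vehicle hearts. Of these 10, 9 were positive, 2 had an unadjusted p under 0.05, compared with 6.44% of all genes, and 0 were called (limma). JIB-04 replicate 1 was nearer to vehicle than the other JIB-04 libraries for both lists. Red blood cell markers had a larger shift and another order. Their 9 rows held 6 distinct ones, since 3 pairs of globin genes had identical values, and the 6 summed to 925, 1831 and 1340.4 CPM in JIB-04 replicates 1, 2 and 3 and to 3813 and 2497 CPM in vehicle replicates 1 and 2. All 6 log2 fold changes were negative (median -1.23). Of the 6, 5 had an unadjusted p under 0.05, compared with 6.44% of all genes, and 0 were called (limma). JIB-04 replicate 1 was the farthest from vehicle. Endothelial markers were positive for 5 of 10 and smooth muscle markers for 3 of 8, with 0 called in each. The part of cell makeup in the stress response values was not tested.

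**Figure D3:**
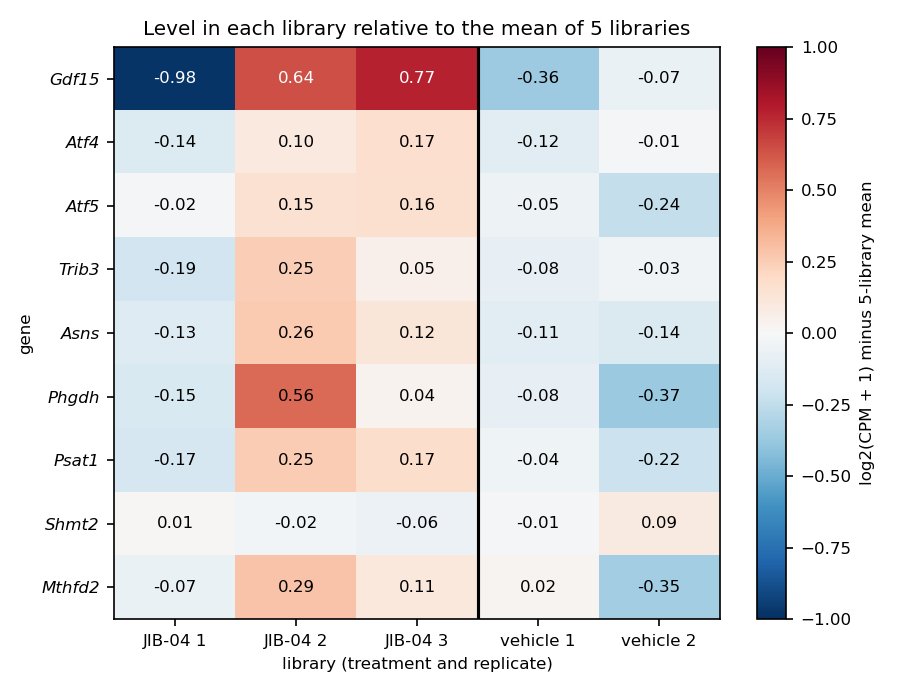
Level of the 9 tested genes in each library relative to the mean over all 5 libraries, as a difference of log2(CPM + 1), with genes down the page and libraries across it. JIB-04 replicates 2 and 3 are above 0 for all genes but Shmt2, JIB-04 replicate 1 is below 0 for all but Shmt2, and Gdf15 has the widest range, from -0.98 to 0.77.

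Levels can be compared between genes once divided by exon length, taken from GENCODE M21 as the joined exons of each gene. On this scale Atf4 averaged 55.3 CPM per kilobase over the 5 libraries, Atf5 42.3 and Shmt2 20.9, and the ranges of these 3 over libraries did not overlap. Gdf15 averaged 3.67 CPM per kilobase, Mthfd2 2.20 and Trib3 1.59. Psat1 averaged 1.02, Asns 0.980 and Phgdh 0.878 CPM per kilobase. The order among Gdf15, Mthfd2 and Trib3 was not clear of the spread, since Gdf15 ran from 1.39 to 5.97, Mthfd2 from 1.64 to 2.71 and Trib3 from 1.33 to 1.97 CPM per kilobase. Psat1, Asns and Phgdh overlapped as well, and Fgf21 was at 0.0362 CPM per kilobase. Transcripts of the factors and of Shmt2 were thus more abundant per length than those of the serine and asparagine enzymes in hearts of both groups.

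Genes around these 10 were described in 9 lists with 130 entries, of which 128 were matched to the files. Of the 124 list genes tested, 0 passed the adjusted threshold in either direction with limma, edgeR or DESeq2, and 7 of them (5.65%) had an unadjusted p under 0.05 in limma, close to the share over all genes. Of 45 list genes picked for naming, 35 had a log2 fold change that moved by over 1.5 times or turned sign when 1 library was left out, and 6 turned sign. Upstream, the 15 genes of eIF2 kinases and the switch on eIF2 had a median log2 fold change of 0.03, with 9 positive and 6 negative. Eif2ak2, the kinase PKR that double-stranded RNA activates and interferon induces, was at 17.0 to 19.7 CPM in JIB-04 and at 15.9 and 15.7 CPM in vehicle hearts (log2 fold change 0.22, SE 0.09, limma adjusted p = 0.774). Eif2ak1, which encodes HRI, the kinase of the mitochondrial branch, was at 46.9 to 49.0 CPM in JIB-04 and at 51.5 CPM in each vehicle library (log2 fold change -0.11, SE 0.06, limma adjusted p = 0.821). For both kinases the groups did not overlap, as for 10.7% of all genes with JIB-04 above vehicle and 12% with JIB-04 below it. Dele1, the messenger between mitochondria and HRI, was at 95.6 to 111 CPM in JIB-04 and at 109 and 120 CPM in vehicle hearts (log2 fold change -0.18), and Oma1, the protease that cuts it, at 26.5 to 30.9 CPM in JIB-04 and 26.6 and 28.3 CPM in vehicle hearts (log2 fold change 0.03). Eif2s1, the phosphorylated subunit itself, had a log2 fold change of 0.09. Eif2ak3, the kinase PERK of the endoplasmic reticulum, had 0.16, and Eif2ak4, the kinase GCN2 that senses lack of amino acids, had -0.03.

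Transcription factors that act beside ATF4 went in both directions, with a median of 0.09 and 5 of 9 positive. Ddit3, the proapoptotic factor CHOP, was at 22.8 to 25.3 CPM in JIB-04 and at 22.1 and 23.0 CPM in vehicle hearts (log2 fold change 0.09, SE 0.08, limma adjusted p = 0.866). Atf3, a repressor induced by many stresses, was at 19.3, 26.7 and 43.3 CPM in JIB-04 and at 24.9 and 33.3 CPM in vehicle hearts, so JIB-04 held both extremes. Cebpb lay lower in every JIB-04 library, at 25.9 to 30.8 CPM against 31.1 and 37.2 CPM in vehicle (log2 fold change -0.28, limma adjusted p = 0.750). Cebpd lay higher in every JIB-04 library (log2 fold change 0.53, limma adjusted p = 0.821), and 0.22 without JIB-04 replicate 3, which was at 28.5 CPM against 14.0 and 15.5 CPM in JIB-04 replicates 1 and 2. Both are C/EBP factors of inflammation and fat cell differentiation. Jun, a subunit of AP-1, and Nfe2l2, the antioxidant factor NRF2, had log2 fold changes of -0.27 and -0.12.

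Among 15 genes of amino acid supply that were tested, 10 were positive and 5 negative, with a median of 0.06. Slc38a2, a transporter of small neutral amino acids that ATF4 induces, was at 549, 637 and 567 CPM in JIB-04 and at 455 and 520 CPM in vehicle hearts (log2 fold change 0.26, SE 0.10, limma adjusted p = 0.750). Gpt2, the mitochondrial alanine aminotransferase, was at 28.0, 18.5 and 21.6 CPM in JIB-04 and at 28.1 and 32.7 CPM in vehicle hearts (log2 fold change -0.42, SE 0.17, limma adjusted p = 0.752). Aldh18a1, the first enzyme of proline synthesis, had a log2 fold change of 0.27 and Slc6a9, a glycine transporter, of 0.22. Chac1, which degrades glutathione and is a sensitive ATF4 target, was at 4.77 to 6.91 CPM in JIB-04 and at 6.64 and 6.12 CPM in vehicle hearts (log2 fold change -0.16, SE 0.15, limma adjusted p = 0.872). The groups overlapped for Chac1 and Slc6a9. They did not for Slc38a2 and Aldh18a1, with JIB-04 above vehicle, as for 10.7% of all genes. Nor did they for Gpt2, with JIB-04 below vehicle, as for 12% of all genes.

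Of 17 further genes of serine and folate metabolism 12 were positive, with a median of 0.04. Mtr, the methionine synthase, was at 24.97 to 27.4 CPM in JIB-04 and at 29.5 and 30.3 CPM in vehicle hearts (log2 fold change -0.19, SE 0.07, limma adjusted p = 0.748). Aldh1l2 and Mthfd1l, enzymes of mitochondrial folate, had log2 fold changes of 0.28 and 0.25, and Shmt1, the cytosolic counterpart of Shmt2, had -0.26. Mthfd1l was at 2.31, 3.72 and 3.47 CPM in JIB-04 and at 2.36 and 2.57 CPM in vehicle hearts, and JIB-04 replicate 1 was its lowest library, as for Gdf15. The groups overlapped for Aldh1l2, Mthfd1l and Shmt1.

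The 18 cytosolic aminoacyl-tRNA synthetases, which load amino acids onto transfer RNA and are partly ATF4 targets, stayed within log2 fold changes of -0.08 and 0.08, with a median of 0.01 and 11 positive. Aars1, for alanine, was at 100.1 to 115 CPM in JIB-04 and at 102 and 96.7 CPM in vehicle hearts, and Iars1, Kars1 and Qars1 had log2 fold changes of 0.08, -0.08 and -0.07. Other ATF4 targets had a median of -0.03, with 6 of 13 positive. Stc2, a secreted glycoprotein, was at 13.4 to 14.9 CPM in JIB-04 and at 19.8 and 15.9 CPM in vehicle hearts (log2 fold change -0.30, SE 0.11, limma adjusted p = 0.748), a value that was -0.15 and -0.45 without vehicle replicates 1 and 2. Ddit4, an inhibitor of the growth kinase mTORC1, had -0.35, Vldlr, a lipoprotein receptor, -0.16, and Soat2, which esterifies cholesterol, 0.24 at under 1 CPM.

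Mitochondrial proteostasis genes, mostly chaperones and proteases with prohibitins and import proteins beside them, differed little between the groups. The 16 genes of this list had log2 fold changes between -0.09 and 0.03, with a median of -0.01 and 5 positive. Hspd1, the chaperonin HSP60, was at 443, 366 and 372 CPM in JIB-04 and at 371 and 399 CPM in vehicle hearts (log2 fold change 0.03, SE 0.10, limma adjusted p = 0.967). Lonp1, the matrix protease, was at 207 to 251 CPM in JIB-04 and at 226 and 245 CPM in vehicle hearts (log2 fold change -0.07). The chaperone Trap1 and the proteases Clpp and Spg7 had log2 fold changes of -0.09, -0.07 and -0.06.

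Of 17 genes of the unfolded protein response of the endoplasmic reticulum, a neighbouring branch that shares PERK and ATF4, 14 were positive, with a median of 0.10. Hspa5, the chaperone BiP, was at 591 to 647 CPM in JIB-04 and at 594 and 579 CPM in vehicle hearts (log2 fold change 0.07, SE 0.08, limma adjusted p = 0.883). Pdia6, a disulfide isomerase, was at 94.1, 108 and 109 CPM in JIB-04 and at 92.7 and 88.6 CPM in vehicle hearts (log2 fold change 0.19, SE 0.08, limma adjusted p = 0.789). Herpud1, a member of the degradation pathway, lay lower in every JIB-04 library, at 110 to 151 CPM against 161 and 188 CPM in vehicle (log2 fold change -0.38, SE 0.15, limma adjusted p = 0.748). Edem1 and Xbp1 had 0.27 and 0.11. The stress response genes had a median of 0.22 and these 9 lists of -0.03 to 0.11, and a difference between lists was not tested. Medians of the marker lists ran wider, from -1.23 for red blood cell to 0.65 for macrophage markers, with fibroblast markers at 0.20.

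**Figure D4:**
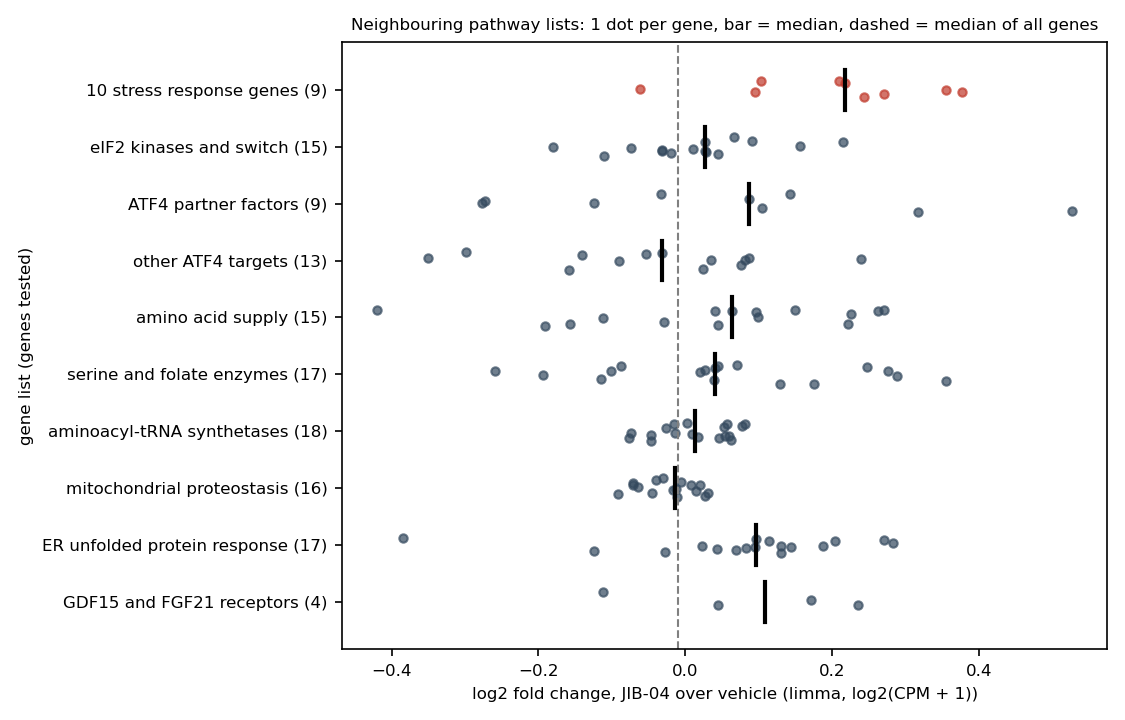
Log2 fold change of JIB-04 over vehicle (horizontal axis, limma on log2(CPM + 1)) for every tested gene of the stress response set and of 9 neighbouring lists. A dot is a gene, a bar the median of its list and the dashed line the median of all 14414 genes, -0.01. The stress response genes have a median of 0.22, while mitochondrial proteostasis genes lie between -0.09 and 0.03.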

How the data were processed

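Hearts of calcineurin transgenic mice given JIB-04 (3 libraries) or vehicle (2 libraries) were sequenced. The labels' protocols name a stranded mRNA kit, and the submitters' processing notes list build mm10 and, with no stated role, TopHat2 2.0.12, featureCounts, Subread, edgeR, Picard 1.127 and FastQC 0.11.2. The deposited column, headed CPM, was treated as a normalised signal, because its sums ran from 954981 to 1046902. The authors had therefore scaled by a library size times a factor, as far as the values show. All values (100%) lay within 0.01 of a whole multiple of 1 read, so whole reads were recovered, 32152168 to 37002846 per library. The blank row (1) was dropped.

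From these, genes with too few reads were removed (edgeR filterByExpr, minimum 10 reads, 15 in total), which left 14414. The test was limma 3.58.1 (R 4.3.3) with a mean-variance trend on log2(CPM + 1), without covariates, with 3 residual degrees of freedom, p-values adjusted by Benjamini-Hochberg for all genes tested and called under 0.05. This scale understates changes of low genes. edgeR 4.0.16, limma-voom and DESeq2 1.42.0 on recovered reads, a pseudocount of 0.1, other filters, plain library totals, a replicate block and leaving out each library were alternatives. Coordinates of genes are those of the files (mm10), and list genes under older symbols were matched through a RefSeq table.

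The genes and lists were chosen with earlier results of these data known. From each pathway list the text names up to 4 genes with the smallest p and 13 genes fixed by name, from each marker list only genes among the 2 most abundant. Genes that overlap a member on the other strand were added after the values were seen. No batch, sex or litter is given in the labels.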

Additional observations from a re-analysis of the deposited data

How the results depend on the processing

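The 9 tested genes were called 0 times under all 13 alternatives, which were other pseudocounts, filters, scalings and tests, fits without 1 library and a replicate block. Their median log2 fold change, 0.22, ran from 0.12 to 0.32 when 1 library was left out and stayed between 0.17 and 0.29 under the others. Over all genes limma called 0, with 928 at an unadjusted p under 0.05 (edgeR 946), while DESeq2 called 84 of 14414, none of them among the 9. Leaving out 1 library gave 0 to 29 genes, with 29 reached only without JIB-04 replicate 1; the cause was not tested. Trib3 ran from -0.010 (without JIB-04 replicate 2) to 0.21 across such fits, and Gdf15 from 0.04 to 0.92. Signs of the other 8 genes held in all alternatives. In fits without a vehicle library the remaining one was assumed to vary like the JIB-04 libraries.

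Replicate numbers 1 and 2 occur in both groups, but the labels do not say that they pair animals. Deviations from the group means correlated at -0.13 across genes for each number. With 2 vehicle libraries their deviations mirror each other, so the 2 correlations are not separate checks. When the replicate number entered as a block the median was 0.17 and 0 genes were called. Only JIB-04 has a replicate 3, so the block gave the same fold changes as leaving that library out. It is thus no separate check of them, and it had fewer degrees of freedom than the main fit. Phgdh had 60 to 134 reads in JIB-04 and 72 and 43 in vehicle libraries, so depth limits how exactly low genes are read. Counting error did not cover all of its spread. The 95% counting interval (exact Poisson) of Phgdh in JIB-04 replicate 2 was 3.01 to 4.25 CPM. Those of the other libraries ended at 2.73 CPM or below.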

Other observations

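Set against Shmt2, whose level hardly varied, Mthfd2, Psat1 and Phgdh followed 1 order of libraries. Their CPM values already had this order. Psph and Shmt1, which were not set against Shmt2, did not have it in CPM. Mthfd2 reads, scaled as deposited, came to 10.98%, 14.9% and 13.3% of the Shmt2 value in JIB-04 replicates 1, 2 and 3, and to 12.01% and 8.32% in vehicle replicates 1 and 2. Psat1 came to 5.70%, 8.33% and 7.998% in JIB-04 and to 6.45% and 5.15% in vehicle hearts, and Phgdh to 2.76%, 5.64% and 3.52% in JIB-04 and to 3.01% and 2.03% in vehicle hearts. For these 3 enzymes JIB-04 replicates 2 and 3 were the highest and vehicle replicate 2 the lowest. Gdf15 came to 2.19%, 7.22% and 7.57% of the Atf4 value in JIB-04 and to 3.77% and 4.46% in vehicle hearts, with JIB-04 replicate 1 the lowest. These ratios were formed after the values were seen and were not tested.

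Liver transcripts were read at different levels in the hearts. Cyp3a11, a liver cytochrome, was at 0, 5.84 and 1.48 CPM in the JIB-04 libraries 1, 2 and 3 and at 1.67 and 1.01 CPM in vehicle hearts.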
